A study of Homo sapiens with 12 samples.

Results

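The DUSP family of MAP kinase phosphatases was described through 10 genes, DUSP1, DUSP2, DUSP4, DUSP5, DUSP6, DUSP7, DUSP8, DUSP9, DUSP10 and DUSP16, chosen by gene symbol as the catalytically active members of the family. The choice was made with earlier results of these data known. All 10 of these symbols were among the 23686 gene symbols of the expression table. RNA had been sequenced from HCT116 cells, a line from a human colon cancer, and from MDA-MB-231 cells, a line from a human breast cancer. Each line was sampled under anti-Hsp60N antibody with H2O2, under IgG with H2O2, and under IgG alone, with 2 libraries in each of the 6 groups and 12 libraries in all. H2O2 was given at 100 µM for 8 h, and both lines were grown with 10% FBS, HCT116 in McCoy's 5A medium and MDA-MB-231 in DMEM. Line and medium therefore cannot be told apart. The labels do not explain the N of Hsp60N, give no antibody dose, and hold no group with the antibody but without H2O2. The sample titles mark the groups under IgG alone as WT, and the labels name no deleted gene. Whether the 2 libraries of a group are separate cultures is not stated, and a p-value here measures only how far such libraries spread, which may be technical.

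MAP kinases are switched on when a threonine and a tyrosine of their activation loop are phosphorylated, and the DUSP phosphatases remove both phosphates. They fall into 3 classes: the nuclear, inducible enzymes DUSP1, DUSP2, DUSP4 and DUSP5; the cytoplasmic enzymes DUSP6, DUSP7 and DUSP9, which prefer ERK; and DUSP8, DUSP10 and DUSP16, which prefer JNK and p38. Several are transcribed in response to the kinases they inactivate, so that their transcripts are widely read as feedback of the pathway.

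Values were TPM, a unit that corrects for transcript length and library total, so that levels of different genes can be set side by side. Each library had 12411 to 12653 genes at 1 TPM or more, and the 2 libraries of a group correlated at 0.994 to 0.996 across genes. In HCT116, 3 of 6 intestinal markers reached 1 TPM: the intestinal transcription factor CDX2 averaged 14.6 TPM, against 0 in every MDA-MB-231 library, EPCAM averaged 351 against 24.1 TPM and CDH1 30.5 against 0.548 TPM. The intestinal genes VIL1, CDH17 and LGALS4 stayed under 1 TPM in every library of both lines. Of 6 mesenchymal markers, 5 reached 1 TPM in MDA-MB-231 and 4 in HCT116. VIM averaged 5.39 TPM in HCT116, against 2366 TPM in MDA-MB-231, and TIMP3 0.467 against 167 TPM. ZEB1 averaged 2.80 against 21.3 TPM, AXL 43.0 against 319 TPM and CD44 227 against 746 TPM, so these were also expressed in HCT116. SPARC stayed under 1 TPM in every library of both lines. Summed immune, endothelial and fibroblast markers stayed under 1 TPM in each HCT116 library and between 1.97 and 6.5 TPM in each MDA-MB-231 library, with DCN at 0 throughout. A bulk library cannot tell fewer cells of a kind from less RNA per cell.

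All 10 genes passed the filter of at least 1 TPM in at least 2 libraries, but DUSP8 and DUSP9 passed through HCT116 alone and stayed under 1 TPM in each MDA-MB-231 library. In HCT116 under antibody with H2O2 the order of mean levels was DUSP5, DUSP6, DUSP4, DUSP7, DUSP1, DUSP2, DUSP16, DUSP9, DUSP8 and DUSP10. Under IgG with H2O2 it was the same except that DUSP9 stood above DUSP16. Under IgG, DUSP6 stood above DUSP5, and both DUSP2 and DUSP9 stood above DUSP1, with DUSP16, DUSP8 and DUSP10 last. In MDA-MB-231 the order was DUSP6, DUSP4, DUSP5, DUSP10, DUSP7, DUSP1, DUSP16, DUSP2, DUSP8 and DUSP9 under all 3 treatments. The libraries of neighbours in each of these orders did not overlap within a group.

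**Figure D1:**
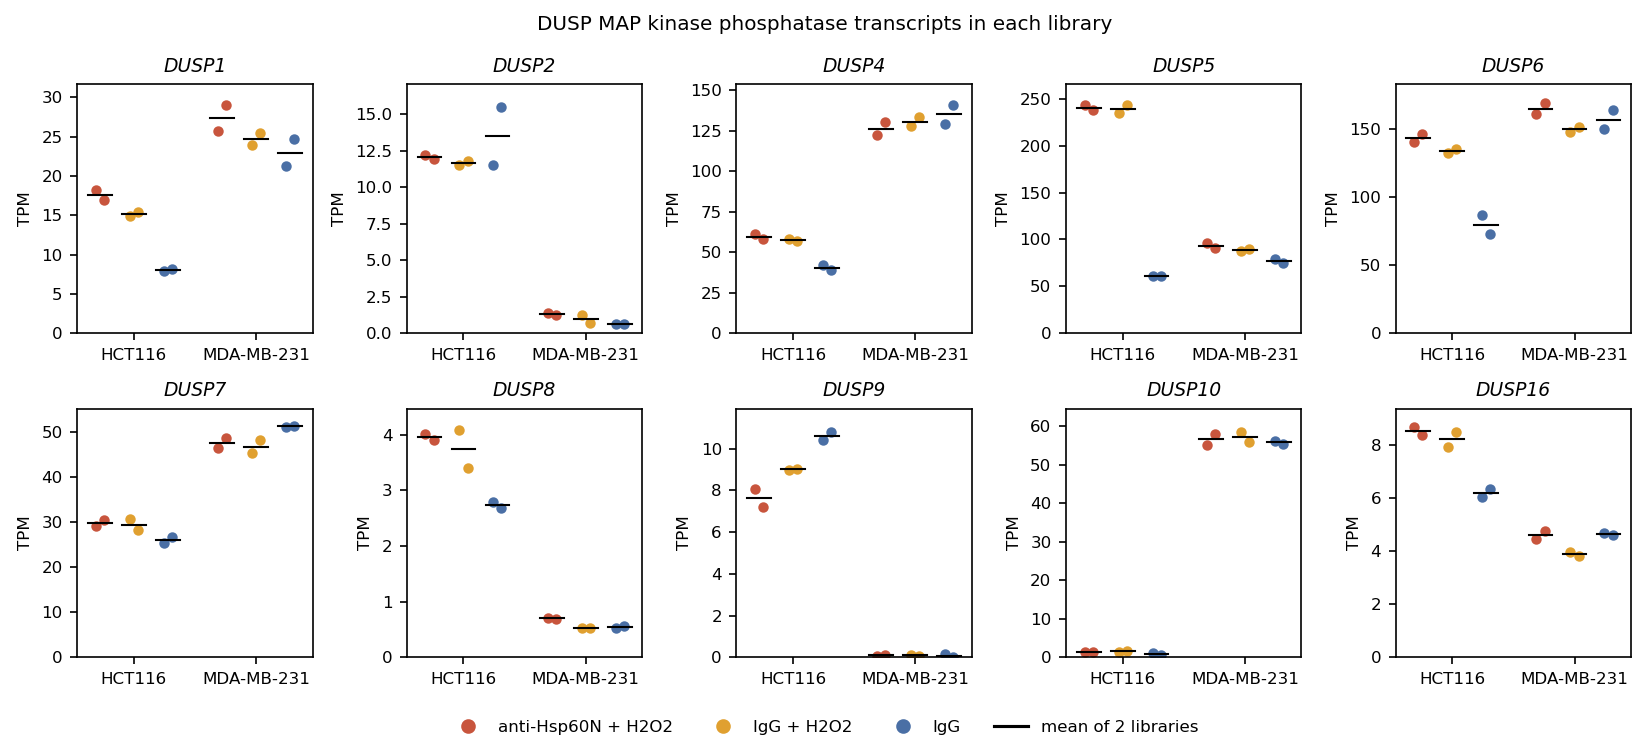
TPM of each of the 10 DUSP genes (vertical axes, each starting at 0 with its own range) in the 12 libraries, by line and treatment. Points are libraries and bars are means of 2; in HCT116 the DUSP5 points under H2O2 lie between 235 and 243 TPM, above both IgG points at 61.2 and 61.6 TPM.

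The lines differed under IgG in every one of the 10 genes. DUSP2, DUSP8, DUSP9 and DUSP16 were higher in HCT116 and DUSP1, DUSP4, DUSP5, DUSP6, DUSP7 and DUSP10 were lower, in a comparison where limma called 82.8% of all genes (45.5% higher, 37.3% lower), so a count of 10 called is near the background. On the log2(TPM + 1) scale the widest gap belonged to DUSP10, a phosphatase of JNK and p38, which had 1.02 and 0.59 TPM in HCT116, against 56.3 and 55.5 TPM in MDA-MB-231 (log2 fold change -4.99, SE 0.11, limma adjusted p = 4.88e-12). DUSP9, an ERK phosphatase known from placental development in the mouse, had 10.4 and 10.8 TPM in HCT116, against 0.14 and 0 TPM in MDA-MB-231, where a listed 0 can be a failed estimate (log2 3.44, SE 0.10, limma adjusted p = 4.39e-11). At a pseudocount of 0.1 the gap of DUSP9 (log2 6.11) was wider than that of DUSP10 (-5.99). DUSP2, an inducible nuclear enzyme first known from activated lymphocytes, had 11.5 and 15.5 TPM in HCT116 and 0.65 TPM in each MDA-MB-231 library (log2 3.12, SE 0.15, limma adjusted p = 3.54e-09). DUSP4 stood at 42.0 and 39.2 TPM in HCT116, against 129 and 141 TPM in MDA-MB-231 (log2 -1.71, SE 0.06, limma adjusted p = 3.03e-10). DUSP5 and DUSP16 had the smallest gaps. DUSP5 had 61.6 and 61.2 TPM in HCT116, against 79.0 and 75.3 TPM in MDA-MB-231 (log2 -0.32, SE 0.05, limma adjusted p = 5.31e-05). DUSP16 had 6.07 and 6.34 TPM in HCT116, against 4.70 and 4.62 TPM in MDA-MB-231 (log2 0.35, SE 0.07, limma adjusted p = 0.00115). Which of the 2 gaps was smaller turned with the scaling, at -0.45 for DUSP5 and 0.24 for DUSP16 after median-of-ratios scaling. DUSP8 and DUSP9 had to be higher in HCT116, since they entered the test through that line. The median of the 10 log2 fold changes was -0.63, beside 0.11 over all genes, and median-of-ratios scaling moved the median of all genes to -0.01 and that of the 10 to -0.77.

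Exposure to H2O2 raised 7 of the 10 transcripts in HCT116 (IgG with H2O2 against IgG) and lowered 0. The 7 were DUSP1, DUSP4, DUSP5, DUSP6, DUSP8, DUSP10 and DUSP16, and they came from all 3 classes. Limma called 15.4% of all 13956 genes higher and 32.9% in either direction. The median log2 change of the 10 genes was 0.43, beside -0.01 over all genes.

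Of the nuclear, inducible class, DUSP5 had the highest level and the largest change of the 10. DUSP5 inactivates ERK in the nucleus and anchors it there. It had 235 and 243 TPM under IgG with H2O2, against 61.6 and 61.2 TPM under IgG. No library of one treatment came near one of the other, and the means stood at 239 ± 5.90 and 61.4 ± 0.304 TPM (SD, n = 2), a ratio of 3.89. The log2 fold change was 1.94 (SE 0.05, limma adjusted p = 9.13e-10), which ranked 6 by p, and 29 counting from the largest rise, among 13956 genes. The related pseudogene DUSP5P1 was listed separately at 0.61 to 2.07 TPM over the 12 libraries. DUSP4 and DUSP5 had no window in the promoter table used here.

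DUSP1, the first described member and a phosphatase of p38 and JNK that oxidative stress is known to induce, had 14.9 and 15.4 TPM under IgG with H2O2, against 7.93 and 8.17 TPM under IgG. Both H2O2 libraries lay above both IgG libraries, at a TPM ratio of 1.88 (log2 0.84, SE 0.08, limma adjusted p = 5.87e-05). The 250 bases before the start of DUSP1 are shown because they hold a cyclic AMP response element (CRE), the site of the CREB and ATF family of transcription factors, which a search of 8 motifs on both strands found upstream of DUSP1 and DUSP8 alone among the 8 genes with a window. The sequence is from RefSeq, GRCh38.p14, chr5:172771196-172771445, minus strand, 5′ to 3′ in the direction of transcription, with the CRE (TGACGTCA) and its short form (TGACG, or CGTCA where it reads on the other strand, both contained in the CRE) in capitals:
DUSP1: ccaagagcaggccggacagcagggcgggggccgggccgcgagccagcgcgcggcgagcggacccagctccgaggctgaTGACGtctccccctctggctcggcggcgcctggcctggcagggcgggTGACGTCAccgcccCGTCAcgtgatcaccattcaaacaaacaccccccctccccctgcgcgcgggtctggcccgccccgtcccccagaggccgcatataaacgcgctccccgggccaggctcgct
The full CRE lies at -125 to -118 counted from the base before the start as -1, and further short forms lie at -172 to -168 and at -111 to -107. The match of the antioxidant response element TGACNNNGC at -115 to -107 is on the other strand and overlaps the last short form. A full CRE stood in 1.65% of the 35116 promoter windows of the table, a short form in 21.2% and the antioxidant response element in 10.9%. These matches are letters in a window, and binding there was not measured.

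DUSP4, a nuclear phosphatase of ERK and JNK, had 58.4 and 57.3 TPM under IgG with H2O2 and 42.0 and 39.2 TPM under IgG in HCT116. The groups did not overlap, at a TPM ratio of 1.42 (log2 0.50, SE 0.06, limma adjusted p = 0.000185). DUSP2 had 11.5 and 11.8 TPM under IgG with H2O2 and 11.5 and 15.5 TPM under IgG, so its groups overlapped (log2 -0.18, SE 0.15, limma adjusted p = 0.376). Its 95% interval, -0.51 to 0.14, lies below the changes of the other members of the nuclear class, and without library 2 of IgG its log2 change was 0.02.

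Of the cytoplasmic class, DUSP6 had the highest level. DUSP6 is the best known negative feedback enzyme of ERK. It had 133 and 136 TPM under IgG with H2O2, against 87.0 and 73.0 TPM under IgG in HCT116. The IgG libraries lay further apart than the H2O2 libraries, and the groups did not overlap (TPM ratio 1.68, log2 0.75, SE 0.08, limma adjusted p = 5.87e-05). Its upstream window is shown because it belongs to a gene that rose with DUSP1 and holds none of the 8 motifs (RefSeq, GRCh38.p14, chr12:89352502-89352751, minus strand, no letters in capitals):
DUSP6: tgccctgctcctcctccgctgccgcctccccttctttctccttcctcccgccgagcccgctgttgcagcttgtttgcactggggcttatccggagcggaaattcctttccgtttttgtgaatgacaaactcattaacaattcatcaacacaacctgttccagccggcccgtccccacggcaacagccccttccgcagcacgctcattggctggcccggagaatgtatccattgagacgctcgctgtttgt
DUSP7 had 30.6 and 28.3 TPM under IgG with H2O2 and 25.4 and 26.8 TPM under IgG. Its groups did not overlap, yet it missed the threshold (log2 0.17, 95% interval 0.03 to 0.30, limma adjusted p = 0.0535), and it passed without library 2 of IgG with H2O2 (adjusted p = 0.0484) and after median-of-ratios scaling (0.0493) or quantile normalization (0.0294). DUSP9 had 8.99 and 9.01 TPM under IgG with H2O2, against 10.4 and 10.8 TPM under IgG. Both H2O2 libraries lay below both IgG libraries, but the difference did not pass (log2 -0.22, 95% interval -0.43 to -0.0036, limma adjusted p = 0.110).

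The class that prefers JNK and p38 was low in HCT116, and its 3 members all rose. DUSP16 had 7.93 and 8.52 TPM under IgG with H2O2, against 6.07 and 6.34 TPM under IgG (log2 0.36, SE 0.07, limma adjusted p = 0.00488). DUSP10 had 1.46 and 1.69 TPM under IgG with H2O2, against 1.02 and 0.59 TPM under IgG, a TPM ratio of 1.96 that the log2(TPM + 1) scale gives as 0.52 (SE 0.11, limma adjusted p = 0.00392). DUSP8 had 4.08 and 3.40 TPM under IgG with H2O2 and 2.79 and 2.68 TPM under IgG (log2 0.34, SE 0.09, limma adjusted p = 0.0184). The groups of all 3 genes were apart, at levels of a few TPM. DUSP8 lost its call without library 1 of IgG with H2O2 (adjusted p = 0.138) and without library 2 of IgG (0.0769), and after quantile normalization (0.0510). With HCT116 fitted alone, DUSP8 (0.0545) and DUSP10 (0.0569) both missed the threshold. DUSP8 is shown because it is the other gene whose window holds a full CRE, at -118 to -111 and again at -74 to -67 (RefSeq, GRCh38.p14, chr11:1572272-1572521, minus strand, CRE in capitals):
DUSP8: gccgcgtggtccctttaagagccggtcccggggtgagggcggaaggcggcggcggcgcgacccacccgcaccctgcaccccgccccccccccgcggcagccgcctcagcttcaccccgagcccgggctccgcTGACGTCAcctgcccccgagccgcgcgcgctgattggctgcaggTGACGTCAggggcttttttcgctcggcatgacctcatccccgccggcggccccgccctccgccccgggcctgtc
This window holds no short form outside its CREs. The 50 bases after its start were not found in the GENCODE transcripts of DUSP8, so its positions rest on the RefSeq start alone. The same held for DUSP7, DUSP16 and a DUSP9 window, while those of DUSP1 and DUSP6 were found. The AP-1 site TGANTCA, the ATF4 composite site TGATGNAA, the CArG box and the NF-kappaB site were found in none of the 10 windows of the 8 genes, and they stood in 6.57%, 3.14%, 1.16% and 5.21% of all windows. A single decamer of the p53 site was found once, upstream of DUSP7, and stood in 5.57% of all windows. Of the 8 genes with a window, 5 rose in HCT116 under H2O2, and 2 of these 5 held a CRE. The share of 1.65% over all windows counts windows, not genes, and was not matched for base content. The windows of DUSP1 and DUSP8 are 74.4% and 76.8% G or C. The CRE was also picked out of 8 motifs in these same windows, so no enrichment can be read from this. DUSP4 and DUSP5 also rose but had no window. A link between the CRE and the rise was not tested.

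In MDA-MB-231, DUSP5 was the 1 gene of the 10 that H2O2 raised, and by a small step. It had 88.1 and 89.8 TPM under IgG with H2O2, against 79.0 and 75.3 TPM under IgG. The groups did not overlap, at a TPM ratio of 1.15 (log2 0.20, SE 0.05, limma adjusted p = 0.0466). Limma called 1.3% of all genes higher, 1.36% lower and 2.66% in either direction in this comparison (181 higher and 190 lower, against 154 and 279 after median-of-ratios scaling and 156 and 242 after quantile normalization). The DUSP5 call was lost in 13 of 21 alternatives, among them median-of-ratios scaling (adjusted p = 0.125) and leaving out either library of IgG with H2O2 (0.181 and 0.283) or of IgG (0.0839 and 0.156). It was also lost without any 1 of the 4 HCT116 libraries under H2O2, which enter through the shared spread (0.0665 to 0.0814).

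The other DUSP genes of MDA-MB-231 did not pass the threshold with H2O2. DUSP6 had 148 and 152 TPM under IgG with H2O2 and 150 and 164 TPM under IgG (log2 -0.06, 95% interval -0.23 to 0.10), and DUSP4 had 128 and 133 TPM, against 129 and 141 TPM (log2 -0.05, 95% interval -0.18 to 0.08). DUSP1 had 23.9 and 25.4 TPM under IgG with H2O2 and 21.2 and 24.6 TPM under IgG (log2 0.10, 95% interval -0.08 to 0.29). DUSP10, abundant in this line, had 58.6 and 55.8 TPM under IgG with H2O2 and 56.3 and 55.5 TPM under IgG (log2 0.03, 95% interval -0.20 to 0.27). The libraries of these 4 genes overlapped between the treatments. DUSP16, at 3.98 and 3.84 TPM under IgG with H2O2 against 4.70 and 4.62 TPM under IgG, and DUSP7, at 45.3 and 48.2 TPM against 51.2 and 51.3 TPM, did not overlap but missed the threshold (limma adjusted p = 0.192 and 0.304). DUSP2 had 1.28 and 0.70 TPM under IgG with H2O2, against 0.65 TPM in each IgG library. Its groups did not overlap either, at a TPM ratio of 1.52, but the H2O2 libraries lay far apart (log2 0.25, 95% interval -0.07 to 0.58, limma adjusted p = 0.425), and the log2 change was 0.04 without library 1 of IgG with H2O2 and 0.47 without library 2. DUSP8 had 0.53 TPM in each library under IgG with H2O2 and 0.52 and 0.56 TPM under IgG (log2 -0.01), and DUSP9 had 0.12 and 0.09 TPM, against 0.14 and 0 TPM (log2 0.05), both with overlapping libraries. The median log2 change of the 10 was 0.01, beside 0.03 over all genes, and it became -0.01 after median-of-ratios scaling.

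**Figure D2:**
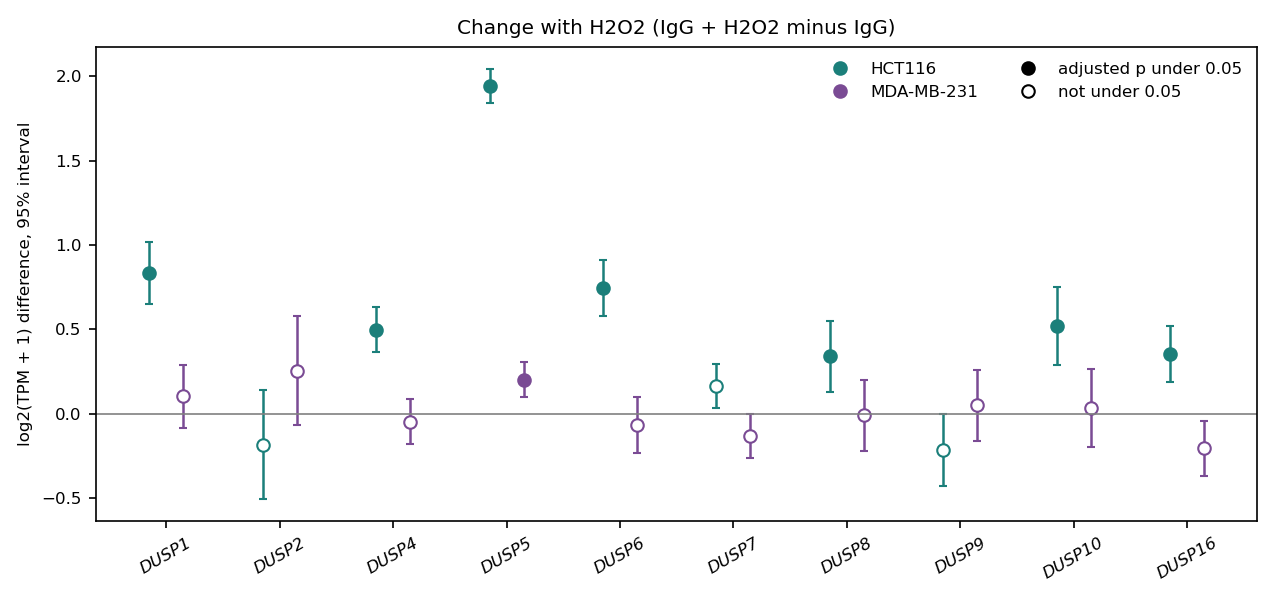
Change with H2O2 (IgG with H2O2 minus IgG, log2(TPM + 1) scale) of the 10 DUSP genes, HCT116 left of MDA-MB-231 for each gene, with 95% intervals. Filled points passed the limma threshold: 7 genes in HCT116, with DUSP5 at 1.94, and DUSP5 alone at 0.20 in MDA-MB-231.

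The H2O2 change itself was larger in HCT116 than in MDA-MB-231 for 7 genes and smaller for 0 by the interaction term, which limma called higher for 7.65% of all genes, lower for 9.72% and in either direction for 17.4%. The difference was 1.74 for DUSP5 (SE 0.07, limma adjusted p = 1.12e-07), 0.81 for DUSP6 (SE 0.11, adjusted p = 0.000863), 0.73 for DUSP1 (SE 0.12, adjusted p = 0.00307), 0.56 for DUSP16 (SE 0.11, adjusted p = 0.00621) and 0.55 for DUSP4 (SE 0.08, adjusted p = 0.00232). These 5 differences passed in each of 20 alternatives. Those of DUSP10 (0.49, adjusted p = 0.0467) and DUSP7 (0.30, adjusted p = 0.0357) did not pass in 15 and 10 of the 20; DUSP10 was lost in 11 of 12 fits that left out 1 library and DUSP7 in 8 of 12, up to adjusted p of 0.141 and 0.128. DUSP8 at 0.35, DUSP9 at -0.26 and DUSP2 at -0.44 did not pass (adjusted p = 0.0978, 0.204 and 0.172). The median difference of the 10 was 0.52, beside -0.04 over all genes.

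Under H2O2, the anti-Hsp60N antibody was set against IgG to ask whether it altered the transcripts that H2O2 had moved. Limma called 0 of the 10 genes in either line. Over all genes it called 0.0215% in HCT116 (3 genes, 0.00717% higher and 0.0143% lower) and 0.0143% in MDA-MB-231 (2 genes, both higher), so few calls were made anywhere. At an unadjusted p under 0.05 stood 2 DUSP genes in HCT116 and 1 in MDA-MB-231, beside 720 and 1829 of all genes.

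DUSP5 in HCT116 had 243 and 237 TPM with the antibody and H2O2, against 235 and 243 TPM with IgG and H2O2. The libraries were interleaved, and the interval of the log2 difference, -0.10 to 0.11, is narrow beside the change of 1.94 with H2O2. In MDA-MB-231 DUSP5 had 96.2 and 90.8 TPM with the antibody and 88.1 and 89.8 TPM with IgG, apart from each other (log2 0.07, 95% interval -0.03 to 0.17). DUSP1 in HCT116 had 18.2 and 17.0 TPM with the antibody, against 14.9 and 15.4 TPM with IgG, apart from each other but short of the threshold (log2 0.20, 95% interval 0.02 to 0.39, limma adjusted p = 0.920). DUSP1 in MDA-MB-231 had 25.8 and 29.1 TPM with the antibody and 23.9 and 25.4 TPM with IgG, also apart (log2 0.14, 95% interval -0.04 to 0.33). DUSP6 was apart in both lines as well, with 140 and 147 TPM against 133 and 136 TPM in HCT116 (log2 0.10, 95% interval -0.07 to 0.26) and 161 and 169 TPM against 148 and 152 TPM in MDA-MB-231 (log2 0.14, 95% interval -0.03 to 0.30). With so few libraries in a group, values can lie apart without any change. How many of all genes lay apart was not counted, so the word only describes the values here and below.

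DUSP9 in HCT116 had 8.08 and 7.19 TPM with the antibody and H2O2, against 8.99 and 9.01 TPM with IgG and H2O2 (log2 -0.21, 95% interval -0.43 to -0.0021, limma adjusted p = 0.920). DUSP16 in MDA-MB-231 had 4.45 and 4.76 TPM with the antibody, against 3.98 and 3.84 TPM with IgG (log2 0.19, 95% interval 0.02 to 0.36, limma adjusted p = 0.321). Neither passed, though the libraries were apart. DUSP2 in HCT116, at 12.2 and 11.9 TPM against 11.5 and 11.8 TPM, and DUSP8 in MDA-MB-231, at 0.71 and 0.69 TPM against 0.53 TPM in each IgG library with H2O2, were apart as well (log2 0.05 and 0.15). The other log2 differences, with overlapping libraries, lay between -0.09 and 0.07 for DUSP4, DUSP7, DUSP8, DUSP10 and DUSP16 in HCT116 and between -0.05 and 0.22 for DUSP2, DUSP4, DUSP7, DUSP9 and DUSP10 in MDA-MB-231. Of the 10 log2 differences, 8 were above 0 in each line as deposited, 7 in HCT116 and 9 in MDA-MB-231 after median-of-ratios scaling. Their medians were 0.04 in HCT116, beside 0.01 over all genes, and 0.10 in MDA-MB-231, beside -0.02 over all genes. The difference of the antibody change between the lines was called for 0 of the 10 and for 0.0287% of all genes (4 genes), with 0 of the 10 at an unadjusted p under 0.05.

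**Figure D3:**
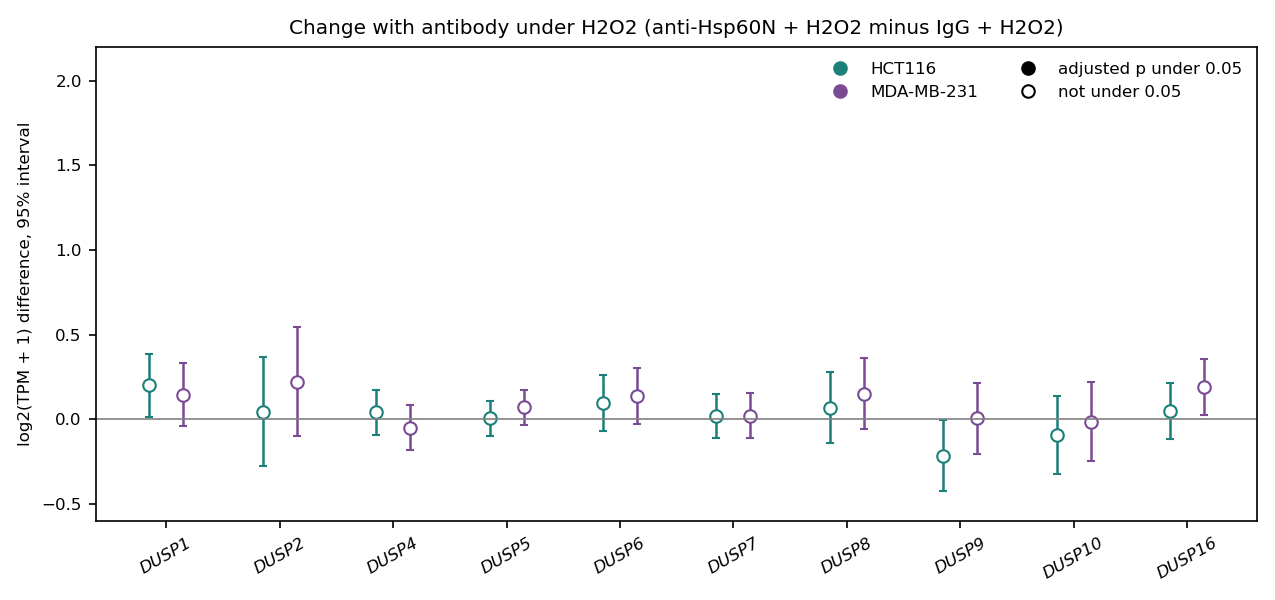
Change with the antibody under H2O2 (anti-Hsp60N with H2O2 minus IgG with H2O2, log2(TPM + 1) scale) of the 10 DUSP genes, HCT116 left of MDA-MB-231, with 95% intervals. The vertical axis reaches 2.2 so that it can be read beside the H2O2 change of DUSP5; every point is open, since 0 genes passed the limma threshold.

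Against IgG alone, cells under antibody with H2O2 shared their IgG libraries with the H2O2 comparison, and the values below are given side by side for that reason. In HCT116, 8 of the 10 genes were higher and 1 was lower, where limma called 16.8% of all genes higher and 17.5% lower (34.3% in either direction). DUSP5 rose by 1.95 (SE 0.05, limma adjusted p = 1.06e-09) and DUSP1 by 1.04 (SE 0.08, adjusted p = 1.06e-05), beside 1.94 and 0.84 under IgG with H2O2. DUSP6 rose by 0.84 (adjusted p = 2.20e-05), DUSP4 by 0.54 (adjusted p = 9.75e-05), and DUSP8, DUSP10 and DUSP16 by 0.41, 0.43 and 0.41. DUSP7 also passed here, with 29.3 and 30.4 TPM against 25.4 and 26.8 TPM (log2 0.19, adjusted p = 0.0330).

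DUSP9 was the gene that fell, with 8.08 and 7.19 TPM under antibody with H2O2, against 10.4 and 10.8 TPM under IgG (log2 -0.43, SE 0.10, limma adjusted p = 0.00614). Of the marginal calls, DUSP7 was lost without library 1 or 2 of the antibody group (adjusted p = 0.0699 and 0.171) or library 1 of IgG (0.138), DUSP9 without library 2 of the antibody group (0.0590) and at a pseudocount of 0.1 (0.309), and DUSP10 without library 1 of the antibody group (0.0679) or library 2 of IgG (0.0650). With HCT116 fitted alone, DUSP7 (0.0839) and DUSP10 (0.0836) were lost as well. In MDA-MB-231, DUSP5 was again the 1 gene called (log2 0.27, SE 0.05, limma adjusted p = 0.00969), among 1.5% of all genes called higher, 1.9% lower and 3.4% in either direction. That call was lost without library 1 of the antibody group (adjusted p = 0.0598), without library 2 of IgG (0.0870) and with the line fitted alone (0.0898). DUSP2, with 1.37 and 1.23 TPM against 0.65 TPM in each IgG library, and DUSP1, with 25.8 and 29.1 TPM against 21.2 and 24.6 TPM, were apart but did not pass (limma adjusted p = 0.111 and 0.144).

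Summed over the 10 genes, HCT116 libraries held 526 and 522 TPM under antibody with H2O2, 505 and 514 TPM under IgG with H2O2, and 256 and 244 TPM under IgG. The sum under antibody with H2O2 was 2.10 times, and that under IgG with H2O2 2.04 times, the sum under IgG. DUSP5 alone made up 179 of the 274 TPM added under antibody with H2O2 (65.1%) and 178 of the 260 TPM added under IgG with H2O2 (68.4%). Without DUSP5 the ratios were 1.51 and 1.44. In MDA-MB-231 the sums were 513 and 533 TPM under antibody with H2O2, 498 and 510 TPM under IgG with H2O2, and 493 and 518 TPM under IgG, with overlapping libraries and ratios of 1.04 and 0.997. HCT116 under H2O2 thus stood near the level that MDA-MB-231 held under each treatment. The same 3 genes, DUSP4, DUSP5 and DUSP6, held most of the sum in both, in other proportions: under IgG with H2O2, DUSP5 averaged 239 TPM in HCT116, against 88.9 TPM in MDA-MB-231, DUSP6 134 against 150 TPM, and DUSP4 57.8 against 131 TPM.

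The composition of the sum moved with DUSP5. In HCT116 the nuclear, inducible class held 63.5% and 62.1% under antibody with H2O2 and 63.3% and 63.7% under IgG with H2O2, against 48.1% and 50.8% under IgG. The JNK and p38 class held 2.71% and 2.61%, and 2.67% and 2.65%, against 3.86% and 3.93%, although its summed level was 13.5 ± 0.0990 TPM under IgG with H2O2 and 9.75 ± 0.191 TPM under IgG (SD, n = 2). In MDA-MB-231 the nuclear class held between 46.6% and 48.9% of the sum in each library, and the JNK and p38 class, through DUSP10, between 11.7% and 12.7%.

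**Figure D4:**
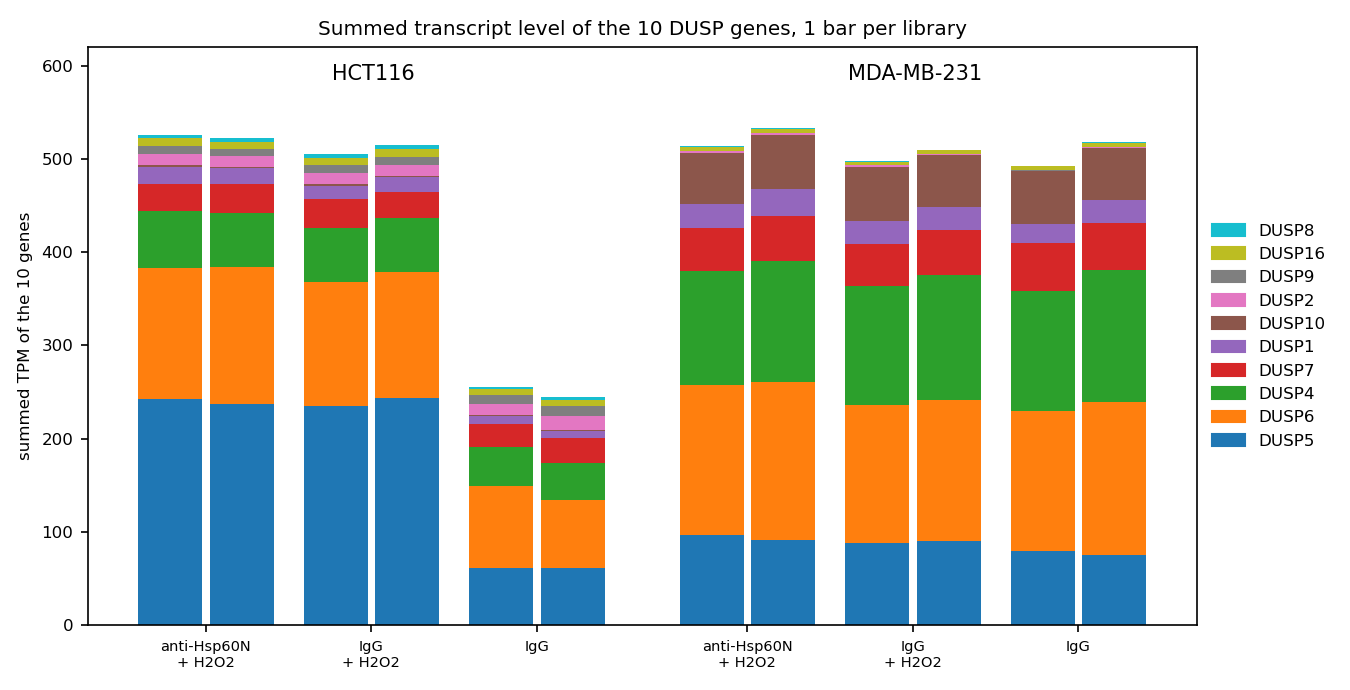
Summed TPM of the 10 DUSP genes (vertical axis from 0), 1 bar per library and 1 colour per gene, by line and treatment. HCT116 bars reach 505 to 526 TPM under H2O2 and 244 to 256 TPM under IgG, and MDA-MB-231 bars reach 493 to 533 TPM under all 3 treatments; the lowest segment is DUSP5.

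The genes around the phosphatases were described through 6 lists, chosen with earlier results of these data known. In HCT116 under IgG with H2O2 against IgG, 2 of 16 genes of the ERK cascade were higher and 3 lower (median log2 0.00, beside -0.01 over all genes), and of 21 tested genes of the JNK and p38 cascade 3 were higher and 3 lower (median -0.05). Over all genes limma called 15.4% higher, 17.5% lower and 32.9% in either direction, so both counts are near the background and the single genes below describe no change of a cascade as a whole. SOS2, a guanine nucleotide exchange factor upstream of ERK, rose to 10.8 ± 0.283 TPM, against 6.08 ± 0.290 TPM under IgG (log2 0.74, limma adjusted p = 0.000219), and the adaptor SHC1 to 163 ± 0.509 TPM, against 131 ± 9.44 TPM (log2 0.31, adjusted p = 0.00174). MAP2K2, a kinase of ERK, fell to 123 ± 8.24 TPM, against 149 ± 4.85 TPM (log2 -0.28, adjusted p = 0.00851), a call lost without library 2 of IgG with H2O2 (0.0744) or of IgG (0.0516). The JNK gene MAPK8 rose to 38.3 ± 0.177 TPM, against 27.7 ± 0.495 TPM (log2 0.46, adjusted p = 9.80e-05), MAPK13, a p38 kinase, rose (log2 0.38, adjusted p = 0.000412), and MAPK14, another p38 kinase, fell (log2 -0.24, adjusted p = 0.00337). The errors are SD, n = 2. The ERK cascade count was 3 without library 2 of IgG with H2O2 and 2 without library 2 of IgG, and the JNK and p38 count was 3 without library 2 of IgG with H2O2.

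Calls in the lists of ERK feedback and output and of early response factors were mostly rises, beside the 15.4% of all genes called higher and 17.5% called lower. Because of how the lists were chosen, these counts only describe their genes and are no independent evidence. The lists were not tested against each other. Of 16 genes of ERK feedback and output, 9 were higher and 1 lower (median log2 0.25), and of 13 tested early response factors 9 were higher and 0 lower (median 0.36). The gene called lower was ETV1 (log2 -0.40, limma adjusted p = 0.00731). Among those not called were SPRY2 (log2 0.11), CCND1 (0.01), FOS (0.18) and EGR1 (-0.03). EPHA2, a receptor tyrosine kinase, rose to 188 ± 3.85 TPM under IgG with H2O2, against 71.3 ± 4.43 TPM under IgG in HCT116 (log2 1.39, limma adjusted p = 1.01e-07). SPRY4, a feedback inhibitor of receptor tyrosine kinase signalling, rose to 62.8 ± 0.276 TPM, against 37.7 ± 0.389 TPM (log2 0.72, adjusted p = 1.75e-06), and FOSL1, an AP-1 subunit, to 311 ± 6.51 TPM, against 172 ± 1.11 TPM (log2 0.85, adjusted p = 2.05e-06). ATF3, a stress-induced transcription factor, rose to 45.8 ± 1.80 TPM, against 9.41 ± 0.679 TPM (log2 2.17, adjusted p = 1.55e-07), IER2 to 162 ± 3.50 TPM, against 102 ± 1.02 TPM (log2 0.67, adjusted p = 7.11e-06), and JUN to 24.4 ± 1.68 TPM, against 10.8 ± 2.52 TPM (log2 1.12, adjusted p = 0.000153). All errors are SD, n = 2.

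Of 10 tested atypical DUSP genes, which lack the MAP kinase binding domain, 3 were higher and 1 lower (median log2 0.12), with changes under 0.31 in size. DUSP23 fell (log2 -0.30, limma adjusted p = 0.00627) and STYXL1 rose (log2 0.21, adjusted p = 0.00812), as did DUSP14 (log2 0.18, adjusted p = 0.0204). Of 8 tested other phosphatases of MAP kinases, 3 were higher and 0 lower (median 0.06). Both counts are near the 32.9% of all genes called in either direction. PPM1D, a p53-induced phosphatase of p38, rose to 41.2 ± 2.67 TPM, against 25.2 ± 0.990 TPM under IgG (SD, n = 2; log2 0.69, adjusted p = 0.000646), PPM1A rose by 0.27 (adjusted p = 0.00863) and PPP2CB by 0.17 (adjusted p = 0.0326). DUSP23 was lost without library 2 of IgG with H2O2 (0.0528), DUSP14 without either library of IgG with H2O2 (0.0571 and 0.0985) or library 1 of IgG (0.0729), and PPM1A without library 2 of IgG with H2O2 (0.0602) or of IgG (0.0536). PPP2CB was lost without any 1 of the 4 libraries (0.0736 to 0.142). The count of the atypical list was 2 without either library of IgG with H2O2, and that of the other phosphatases 1 without library 2 of either treatment.

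In MDA-MB-231, H2O2 changed 0 genes of the 6 lists by limma, beside 2.66% of all genes. The list medians lay between -0.04 and 0.07. At an unadjusted p under 0.05 stood 2329 of all 13956 genes. Among them were 3 genes each of the ERK cascade, the JNK and p38 cascade and ERK feedback and output. The early response factors and the other phosphatases had 1 each, and the atypical DUSP genes 0. EPHA2 had 181 ± 7.63 TPM under IgG with H2O2 and 210 ± 12.4 TPM under IgG (SD, n = 2; log2 -0.21, limma adjusted p = 0.0970), and ATF3 had 6.39 ± 0.0636 and 5.48 ± 0.990 TPM (log2 0.20, adjusted p = 0.360). Leaving out either IgG library of HCT116 gave 1 call each in the ERK and the JNK and p38 cascade, and median-of-ratios scaling and the replicate block each gave 1 call in ERK feedback and output. The H2O2 change was larger in HCT116 for 10 of 16 genes of ERK feedback and output and for 6 of 13 early response factors, and smaller for 0 of either list, beside 7.65% and 9.72% of all genes. The count of ERK feedback and output was lower than this in every fit that left out 1 library. Of the ERK cascade 1 gene was called larger, of the JNK and p38 cascade 2 larger and 1 smaller, and of the atypical DUSP genes and other phosphatases 2 each, the counts of these smaller lists falling to 0 or 1 in many of the fits that left out 1 library. The ERK cascade call, SOS2, was lost without library 2 of IgG with H2O2 in HCT116 (0.0532) or library 1 of it in MDA-MB-231 (0.0643).

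**Figure D5:**
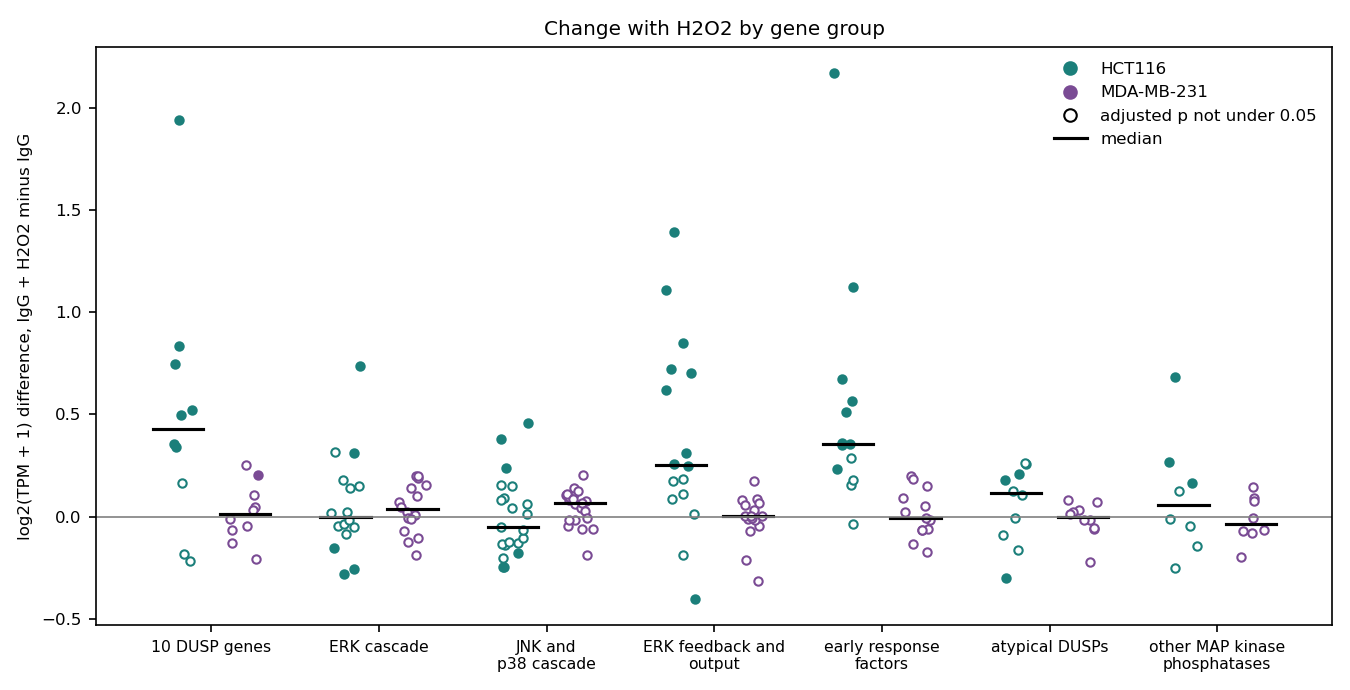
Change with H2O2 (IgG with H2O2 minus IgG, log2(TPM + 1) scale) of the 10 DUSP genes and of the tested genes of 6 lists, HCT116 left of MDA-MB-231 in each column, with a bar at each median. Filled points passed the limma threshold; in MDA-MB-231 DUSP5 is the single filled point, and in HCT116 the medians of the DUSP genes, ERK feedback and output and early response factors lie at 0.43, 0.25 and 0.36.

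With the antibody under H2O2, limma called 0 genes of the 6 lists in either line. At an unadjusted p under 0.05 stood 0 to 1 gene of each list in HCT116, beside 720 of all 13956 genes. In MDA-MB-231 it was 1 to 5 genes of each list, beside 1829 of all 13956 genes. The highest count, 5 of 13, was that of the early response factors. Under antibody with H2O2 against IgG in MDA-MB-231, IER3 (log2 0.39, limma adjusted p = 0.0228), JUNB (0.52, adjusted p = 0.0375) and MYC (0.19, adjusted p = 0.0428) were higher and 0 were lower. They were 1 of 16 genes of ERK feedback and output and 2 of 13 tested early response factors, with 0 in each other list. Limma called 1.5% of all genes higher, 1.9% lower and 3.4% in either direction. Over the 6 lists together the calls are near that background. IER3 had 1968 and 2286 TPM under antibody with H2O2, against 1565 and 1669 TPM under IgG, and JUNB 43.1 and 54.0 TPM, against 31.4 and 35.4 TPM. These calls were lost without library 2 of the antibody group (adjusted p = 0.172, 0.247 and 0.153 for IER3, JUNB and MYC), without either IgG library of MDA-MB-231 (0.0714 to 0.165) and, for MYC, without library 1 of the antibody group (0.135). JUNB and MYC were also lost without either library of IgG with H2O2 in MDA-MB-231, and MYC without any 1 of the 4 HCT116 libraries under H2O2 (0.0501 to 0.0768).

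DUSP1 and DUSP5 had the widest patterns within a line and were set against 11519 genes, over the 12 libraries, by the root mean square difference of log2(TPM + 1) after subtraction of each line's IgG mean. The genes nearest to DUSP5 were TRIB3, a stress-induced pseudokinase, at 0.103, MXD1, a repressor of the MYC network, at 0.106, and MAP1LC3B, an autophagosome protein, at 0.125. Their log2 changes with H2O2 were 2.10, 1.93 and 1.83 in HCT116 and 0.29, 0.28 and 0.10 in MDA-MB-231. The genes nearest to DUSP1 were FOSL1 at 0.0660, the insulin receptor substrate IRS2 at 0.0784, and the transcription factor KLF4 at 0.0895, with changes of 0.85, 0.84 and 0.94 in HCT116 and 0.05, 0.03 and 0.11 in MDA-MB-231. These likenesses describe 12 libraries that share their IgG baselines, and they carry no test.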

How the data were processed

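RNA sequencing of 12 libraries in 6 groups was deposited as TPM, to 2 decimals, in 1 table of 23686 gene symbols; per the submitters' processing notes the authors used bcl2fastq 2.20, STAR, RSEM and build hg19, while other versions, annotation and strand were not given in the sources used here. TPM keep no read depth, so no counting interval can be given, and they are shares, so that a rise elsewhere lowers a gene. Unmatched columns numbered 0.

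From these values log2(TPM + 1) was tested with limma 3.58.1 (R 4.3.3), two-sided, with a variance trend, over all 12 libraries (6 residual and 4.63 prior degrees of freedom), for 13956 genes at 1 TPM or more in at least 2 libraries, with Benjamini-Hochberg adjustment over all of them and a threshold of 0.05. Fold changes on this scale understate low genes. The procedure was tested on simulated data with independent libraries and changes placed only in well-expressed genes of HCT116 under IgG with H2O2. That test does not cover low genes such as DUSP8, libraries that are not independent, or the comparisons between lines. Alternatives were the scaling, the filter, the pseudocount, the trend, the replicate block, 1 line alone and each library left out.

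Every DUSP gene is reported; from each list up to 3 called genes of smallest p are named, and likeness took genes at a mean of 5 TPM with a spread of at least 1 on the log2 scale (further genes were named after their values were seen). All 95 list symbols were matched, 1 through a synonym. The genes and lists were chosen with earlier results of these data known. Promoter windows are RefSeq's (GRCh38.p14), another build than the files'. Plots used Python 3.11.15 and matplotlib 3.10.9.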

Additional observations from a re-analysis of the deposited data

Results flagged for a closer look

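The change with H2O2 differed between the lines, by the interaction term of limma, for 7 of the 10 DUSP genes. The difference of the log2 change, HCT116 minus MDA-MB-231, was 1.74 for DUSP5, 0.81 for DUSP6, 0.73 for DUSP1, 0.56 for DUSP16, 0.55 for DUSP4, 0.49 for DUSP10 and 0.30 for DUSP7. Those of DUSP10 and DUSP7 were marginal and did not pass in 15 and 10 of 20 alternatives. DUSP5 rose in both lines, by 1.94 in HCT116 and by 0.20 in MDA-MB-231, and the second of these calls was lost in 13 of 21 alternatives. DUSP7 passed the threshold in neither line taken alone, at 0.17 in HCT116 and -0.13 in MDA-MB-231. Starting levels differed too: under IgG, 6 of these 7 genes were lower in HCT116 than in MDA-MB-231, and DUSP16 was higher. The part of the starting level, or of the medium, in these differences was not tested.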

How the results depend on the processing

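Of 1842 values of the 10 DUSP genes under alternative settings, 1752 kept their direction and their side of the threshold, 55 lost a call and 4 gained one. Another 31 changed sign without a call, and 0 changed sign while called. Changes of size alone were not counted. A fit that left out a library outside the compared groups could not move the log2 change, so its direction was fixed in advance. The total also holds the comparisons of the antibody under H2O2, where 0 DUSP genes were called under any setting. The share of values that stayed the same is therefore no measure of robustness. In HCT116 under H2O2 the count of DUSP genes called was 7, between 6 and 8 with 1 library left out and between 5 and 8 under the other settings. In MDA-MB-231 the count of 1 became 0 under median-of-ratios scaling, quantile normalization, no variance trend, the replicate block and the line fitted alone, and lay between 0 and 1 with 1 library left out. For antibody with H2O2 against IgG in MDA-MB-231 it became 0 with the line fitted alone and lay between 0 and 1 with 1 library left out. The cause was not tested.

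Over all genes, 4592 were called with H2O2 in HCT116 (3000 without library 2 of IgG with H2O2), 371 in MDA-MB-231 (116 to 184 without any 1 of the 4 libraries compared, 86 with the line alone), 2423 for the difference between the lines (1251 to 1571 without any 1 of the 4 libraries under IgG with H2O2), and, for antibody with H2O2 against IgG, 4792 in HCT116 (2953 without library 2 of the antibody group) and 475 in MDA-MB-231 (145, 163 and 301 without IgG library 2, antibody library 2 and IgG library 1, 101 with the line alone). With the antibody under H2O2, the 3 genes of HCT116 became 1 to 7 and the 2 of MDA-MB-231 became 0 to 3. A mean of at least 5 TPM as filter left DUSP8 and DUSP9 untested.

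Samples with the same replicate number deviated together weakly or not at all (correlations of -0.13 to 0.16), and the main fit took the numbers as names. The highest correlations, 0.16 and 0.10, were in MDA-MB-231. Whether the numbers mark a batch was not tested. With the replicate block the counts of DUSP genes called were 7 in HCT116 and 0 in MDA-MB-231 for H2O2, and 5 for the difference between the lines. A crossed pairing of the HCT116 IgG libraries, added after seeing the data, gave 7 DUSP genes and 4731 genes.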
